A study of Mus musculus with 48 samples.

Results

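The 46 gene models described here were minor in an anti-FLAG precipitate of 4T1, a cell line from a mouse mammary carcinoma. They were concentrated in it relative to the lysate only once the most abundant models had been set aside. They were chosen by their counts in the precipitate (RIP) and in the lysate (input), so their RIP over input ratios are descriptions and carry no test. From a table of 26899 gene models, the 13 with the highest mean share of RIP counts and the 120 with the highest input sum were set aside, which left 26770 because the sets overlapped. Each library was scaled to CPM, its counts per 1000000 counts on those 26770 models, and a model was kept if its mean RIP CPM was at least 4 times its mean input CPM plus 1 and its 24 RIP libraries summed to at least 240 counts. Of the 761 models that reached 240 counts, 46 (6.04%) met the ratio, none carried a symbol ending in os, and a further 1061 models met the ratio below that count.

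The cells carried a control vector, 8166-M24-658, or a human CNOT7 cDNA with a FLAG tag in a lentiviral vector with a murine Pol2 promoter, and the cultures were selected in blasticidin. The CNOT7 forms were the wild type, D40A, which lacks deadenylase activity, E247A/Y260A, which does not bind TOB1, and M141R, which does not bind CNOT1. Every RIP library, the vector libraries included, was made with the M2 FLAG antibody from native lysate, and each input was a part of the same lysate depleted of ribosomal RNA. Libraries numbered 6 to 10 gave 5 replicates per construct, except that D40A had no replicate 7 (n = 4), for 24 RIP and 24 input libraries. The labels do not describe the cultures as single clones.

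CNOT7 is a deadenylase, an enzyme that shortens the poly(A) tail of mRNAs, and it acts within the CCR4-NOT complex, whose scaffold is CNOT1. In RNA immunoprecipitation an antibody collects a protein with the RNA bound to it. The lysate shows how abundant each RNA was beforehand, except for ribosomal RNA, which was depleted from the inputs here. The vector precipitates show what the same procedure recovers from cells into which no CNOT7 form was introduced.

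The models were sorted into classes after their values had been seen, the first by its ratio and the others by what the annotation says of them. The high-ratio class held 10 models with a ratio of at least 50, namely Vwa3a, Gnb1l, Itga9, Dcaf10, Fam163b, Dnah7b, Hacd1, Rsph3a, Arhgap21 and Gm23935. A further 8 carried a satellite repeat, 13 spanned over 1 Mb of the genome, 8 were genes of the actin cytoskeleton or models that lie across such genes, and 7 shared none of these features. Symbols, spans and strands were taken from GENCODE M21, a newer build than the mm9 that the submitters' processing notes name, so no coordinates are given. One model, ENSMUSG00000089855, was not in that annotation.

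The 8 satellite models are Gm10800, Gm26870, Gm10717, Gm10719, Gm10715, Gm11168, Gm21738 and Gm10720. Mouse major satellite is the tandem repeat of pericentromeric heterochromatin, and reads from any copy can be assigned to any model that contains it. The 8 models share 8 different words of 25 bases, which is what placed them together, and a word of this set occurred in 13 of 55450 annotated genes (0.0234%). The commonest distance between repeated 12-base words was 234 bases in 6 of the 8 models, 225 in Gm10800 and 237 in Gm11168. Windows of 90 bases from transcripts of 4 of the models (GENCODE M21, 5′ to 3′) show the common repeat, with capitals marking the 30 bases that all 8 models share, on the complementary strand in Gm26870.
Gm10800: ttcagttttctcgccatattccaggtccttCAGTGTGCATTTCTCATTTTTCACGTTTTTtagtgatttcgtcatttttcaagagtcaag
Gm10719: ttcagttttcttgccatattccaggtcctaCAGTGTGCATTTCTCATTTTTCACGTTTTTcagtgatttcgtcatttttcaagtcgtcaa
Gm21738: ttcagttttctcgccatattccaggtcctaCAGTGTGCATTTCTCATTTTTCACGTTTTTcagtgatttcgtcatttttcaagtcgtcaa
Gm26870: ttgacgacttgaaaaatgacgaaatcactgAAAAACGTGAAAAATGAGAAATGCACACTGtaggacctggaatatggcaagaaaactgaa

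A whole repeat unit of 234 bases, bases 170 to 403 of a Gm10717 transcript, begins with the same 30 bases in capitals and shows what lies between successive copies.
Gm10717: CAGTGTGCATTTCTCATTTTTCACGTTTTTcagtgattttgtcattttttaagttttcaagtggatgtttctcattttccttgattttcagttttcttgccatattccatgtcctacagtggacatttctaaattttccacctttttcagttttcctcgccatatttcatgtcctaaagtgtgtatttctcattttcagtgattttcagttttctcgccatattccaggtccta

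Gm23935, annotated as a microRNA on the strand opposite Zc3h7a, is shown because its 24 inputs were all at 0. Its 57 bases held 73.7% G or C and matched none of 2743 RefSeq mature or hairpin microRNA sequences. They were not compared with ribosomal RNA sequences.
Gm23935: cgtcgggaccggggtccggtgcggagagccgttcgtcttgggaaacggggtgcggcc

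Models opposite the gene for dystonin (Dst), a linker of actin to other filaments, are shown because their exons lie on the exons of Dst in antisense. In Gm26788 the longest run complementary to a Dst transcript was 653 bases, and in A930005N03Rik it was 457 bases. The first 60 bases of that run are printed in capitals for each, after 15 flanking bases in lower case for A930005N03Rik.
Gm26788: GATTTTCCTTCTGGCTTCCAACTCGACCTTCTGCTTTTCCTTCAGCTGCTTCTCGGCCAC
A930005N03Rik: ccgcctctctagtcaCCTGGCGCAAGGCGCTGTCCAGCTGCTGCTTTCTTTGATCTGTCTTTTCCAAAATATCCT

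Total counts ranged from 1305627 to 10719137 in RIP libraries and from 337861 to 826768 in inputs, but the 13 most abundant models took 95.4% to 98.2% of each RIP library. The 26770 remaining models therefore held 19098 (D40A replicate 10) to 237980 (D40A replicate 9) counts per RIP library and 100100 to 358654 per input. Among the inputs, CNOT7 replicate 10 stood apart, with 1.59% of its counts on the 13 models against a median of 12.5%, and with 0 counts on Cmss1 and on all 13 models over 1 Mb. Without that input the rule kept 47 models, and without D40A RIP replicate 10 it kept 48, with all 46 among them in both. Of 8 epithelial markers, 7 had at least 1 count in the inputs, Krt5 with 1 count in all, and Krt14 was at 0. Every fibroblast, leukocyte and endothelial marker also had at least 1 count. Summed in CPM over all models, the epithelial markers had a median of 85.5 CPM (range 49.6 to 160). The medians were 2.47 CPM for 5 fibroblast, 9.40 CPM for 6 leukocyte and 11.7 CPM for 3 endothelial markers, lists of unlike length. Epcam (327 counts), Cdh1 (329) and Krt7 (413) led the epithelial sum. Pecam1 (128), an endothelial marker, exceeded Krt8 (47), Krt18 (56) and Krt19 (29).

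The 46 models held a median of 15.1% (10.2% to 19.1%) of the remaining RIP counts and 1.12% (0.578% to 1.67%) of the remaining input counts. The shares of the remaining counts chose the models. Of all counts, with the most abundant models included, the median share was 0.223% in RIP and 0.4% in input. The direction thus held only after those models had been set aside. In bulk RNA, fewer cells and less RNA per cell cannot be told apart, and CPM shows shares of the counted RNA, not amounts. For 16 of the 46 models every RIP library exceeded every input library in CPM. Over the 26770 models it was 18 (0.0672%), and over the 761 at the count minimum the same 16 (2.1%). The rule chose models by RIP over input, so these counts are a description.

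**Figure D1:**
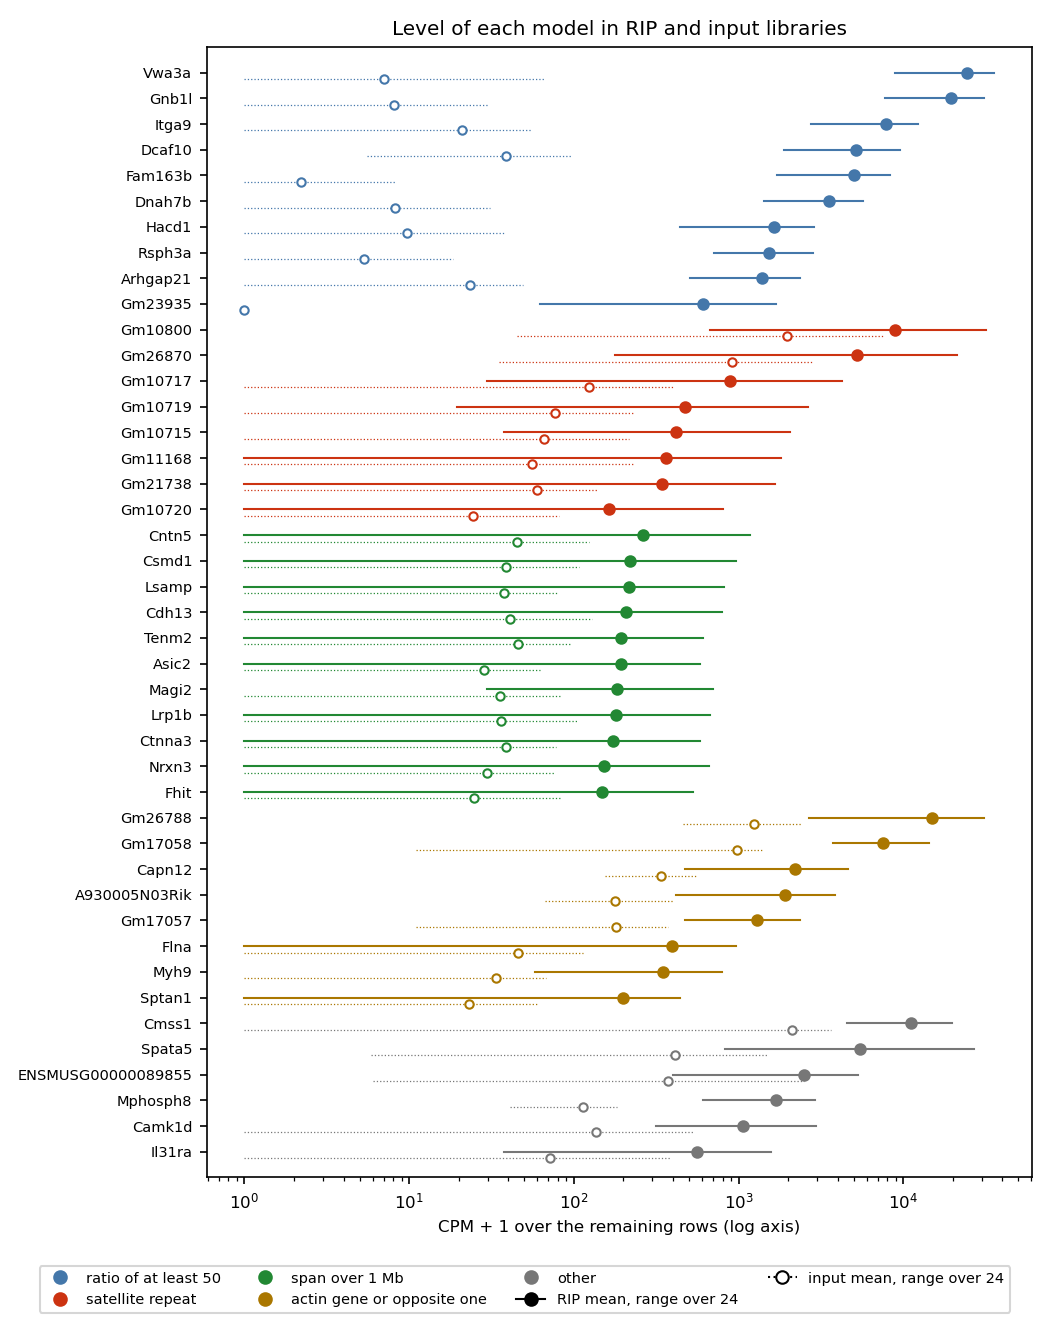
Level of 43 of the 46 models, as CPM + 1 over the remaining models on a log axis. Filled points and solid lines are the mean and range over 24 RIP libraries, open points and dotted lines those over 24 inputs, and colours are the classes. The ranges of the 10 high-ratio models do not meet, while those of the satellite models and of the models over 1 Mb overlap.

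The rule pooled the libraries of all constructs, the vector included, so ratios by construct describe values that chose the models. Computed from the libraries of each construct alone, the ratio was at least 4 for 41 of the 46 models in vector cells, 44 with CNOT7, 43 with D40A, 42 with E247A/Y260A and 45 with M141R, and it exceeded 1 for all 46 in each construct. With the count minimum scaled to the number of libraries, the whole rule kept 31 models from vector libraries alone, 28 of them among the 46 and none of them over 1 Mb, and 32 from CNOT7 libraries alone, 30 of them among the 46. The median ratio was 7.91 in vector cells, 6.85 with CNOT7, 6.80 with D40A, 6.97 with E247A/Y260A and 10.1 with M141R. Within single lysates the picture was less even. When each RIP library was set against the input of its own lysate, 21 of the 46 models exceeded a ratio of 1 in all 24 lysates and 11 reached 4 in all 24.

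At the limits of the rule, the models just inside the ratio included Tenm2 (4.22) and Ctnna3 (4.43), and those just outside included Pde4d (3.96) and Celf2 (3.85). Just inside the count minimum were Sptan1 (242 RIP counts) and Fhit (256), and just outside were Rbms3 (237), Ptprt (236) and Lrmda (230).

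The 10 high-ratio models held 42.6% of the members' RIP counts, and their ratios ran from 59.1 to 3483. The protein products that are best known differ in kind. Itga9 is an integrin alpha subunit, Dcaf10 a substrate receptor of CUL4 ubiquitin ligases, Dnah7b a dynein heavy chain and Rsph3a a radial spoke protein of motile cilia, Hacd1 an enzyme of fatty acid elongation, and Arhgap21 a GTPase-activating protein. Each had at most 11 counts in any input, apart from Itga9 with 12 and Dcaf10 with 26.

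Vwa3a, which encodes a protein with a von Willebrand factor A domain, averaged 24552 CPM in RIP and 6.05 CPM in input. For replicates 6 to 10 in order, its RIP level was 19884, 24066, 28822, 21306 and 33351 CPM in vector cells and 20563, 23487, 34064, 12750 and 34626 CPM with CNOT7. With D40A it was 23383, 29712, 12526 and 35815 CPM (replicates 6, 8, 9 and 10). The constructs overlapped, and replicate 9 was the lowest in each FLAG-CNOT7 form. In E247A/Y260A it was 21738, 22488, 30737, 14161 and 32112 CPM, and in M141R 21962, 23289, 29427, 8877 and 30112 CPM. Its 24 inputs lay between 0 and 65.7 CPM, with 13 at 0.

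Gnb1l encodes a WD-repeat protein, and its mean was higher in vector RIP than in each FLAG-CNOT7 form. Its RIP level was 25164, 22736, 30995, 29729 and 17558 CPM in vector replicates 6 to 10, or 25236 ± 5444 CPM (SD, n = 5). It was 18192 ± 4890 CPM (n = 5) with CNOT7, 17576 ± 6827 CPM (n = 4) with D40A, 17589 ± 6086 CPM (n = 5) with E247A/Y260A and 18735 ± 7305 CPM (n = 5) with M141R. All groups overlapped, since the lowest vector library (17558 CPM) lay under the highest library of each form. At the same replicate number the vector library was the higher one at 5 of 5 numbers against CNOT7, 4 of 4 against D40A, 5 of 5 against E247A/Y260A and 4 of 5 against M141R. Inputs of Gnb1l lay between 0 and 29.4 CPM.

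Fam163b had 5 counts in total over the 24 inputs and 19 inputs at 0, while its RIP libraries ranged from 1721 to 8365 CPM with a median of 5288 CPM. Itga9 ranged from 2756 to 12231 CPM in RIP (median 7797) and from 0 to 53.8 CPM in input (median 19.0). Dcaf10 ranged from 1889 to 9530 CPM in RIP and from 4.51 to 95.7 CPM in input. None of the 24 RIP libraries of these genes fell to the level of any input.

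Gm23935 was counted 735 times in RIP libraries and 0 times in input. Its RIP level was 316, 443, 421, 396 and 1157 CPM in vector replicates 6 to 10 and 212, 456, 526, 61.1 and 999 CPM with CNOT7. It was 313, 564, 1030 and 1676 CPM with D40A (replicates 6, 8, 9 and 10). Replicate 10 was the highest in each of these groups, and the groups overlapped. Pooled over libraries, its RIP level was 635 CPM, and 3 counts over all inputs would be 0.601 CPM, 1056-fold lower. This contrast chose the model, so the values are a description. D40A replicate 9 gave 245 of the 735 RIP counts, and reads that carry no molecular identifier may be copies of 1 molecule.

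The 8 satellite models held 17.4% of the members' RIP counts, with ratios from 4.53 (Gm10800) to 7.20 (Gm10717). They took a median of 0.885% of the remaining counts in RIP libraries and 0.341% in inputs. None of the 8 had every RIP library above every input. D40A replicate 9, the RIP library with the most remaining counts, gave 5495 of the 14145 RIP counts of Gm10800 and 4677 of the 9871 of Gm26870. Of the other 5 models with the shared words, Gm10801 had a ratio of 3.33 and lay outside the rule on that account, while Gm10718 (4.32), Gm10722 (5.90), Gm17535 (3.83) and Gm10721 (5.86) had 182, 171, 72 and 28 RIP counts, all under the minimum. Because copies of the repeat are nearly identical, how the counts divide among the 8 models is uncertain, and their sum is the safer quantity.

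The summed satellite level followed the replicate number far more than the construct. In RIP it was 1101 to 2265 CPM over the 5 constructs at replicate 6, 9943 to 21859 CPM over 4 constructs at replicate 7, 4474 to 13012 CPM at replicate 8, 40342 to 58438 CPM at replicate 9 and 6532 to 7924 CPM at replicate 10. Replicate 9 was thus the highest and replicate 6 the lowest in every construct. The inputs differed too, with 88.2 to 367 CPM at replicate 6 and 1700 to 11568 CPM in all other inputs except M141R replicate 10 (390 CPM).

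Set against the input of the same lysate, the satellite sum had a ratio of 0.68 (CNOT7 replicate 10) to 26.94 (D40A replicate 9), above 1 in 23 of 24 lysates and at least 4 in 13. At replicate 9 the ratio was 23.71 in vector cells, 15.37 with CNOT7, 26.94 with D40A, 13.93 with E247A/Y260A and 17.07 with M141R. At replicate 10 it was 1.18, 0.68, 1.10 and 1.84 in the first 4 and 19.53 with M141R, whose input was low. The ratio of the repeat was uneven between lysates, those of vector cells included.

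Gm10800, the satellite model with the most RIP counts, stood at 1406, 5995, 3015, 26296 and 3182 CPM in vector RIP replicates 6 to 10 and at 763, 8679, 8080, 31646 and 3563 CPM with CNOT7. Gm26870, a lincRNA model in the opposite orientation, stood at 344, 2660, 1070, 9346 and 2632 CPM in vector RIP and at 177, 3483, 2526, 21067 and 2714 CPM with M141R. Both had their highest value at replicate 9. Without the libraries numbered 9 the rule kept 25 models, 24 of them shared with the 46, and all 8 satellite models and all 13 models over 1 Mb were lost.

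**Figure D2:**
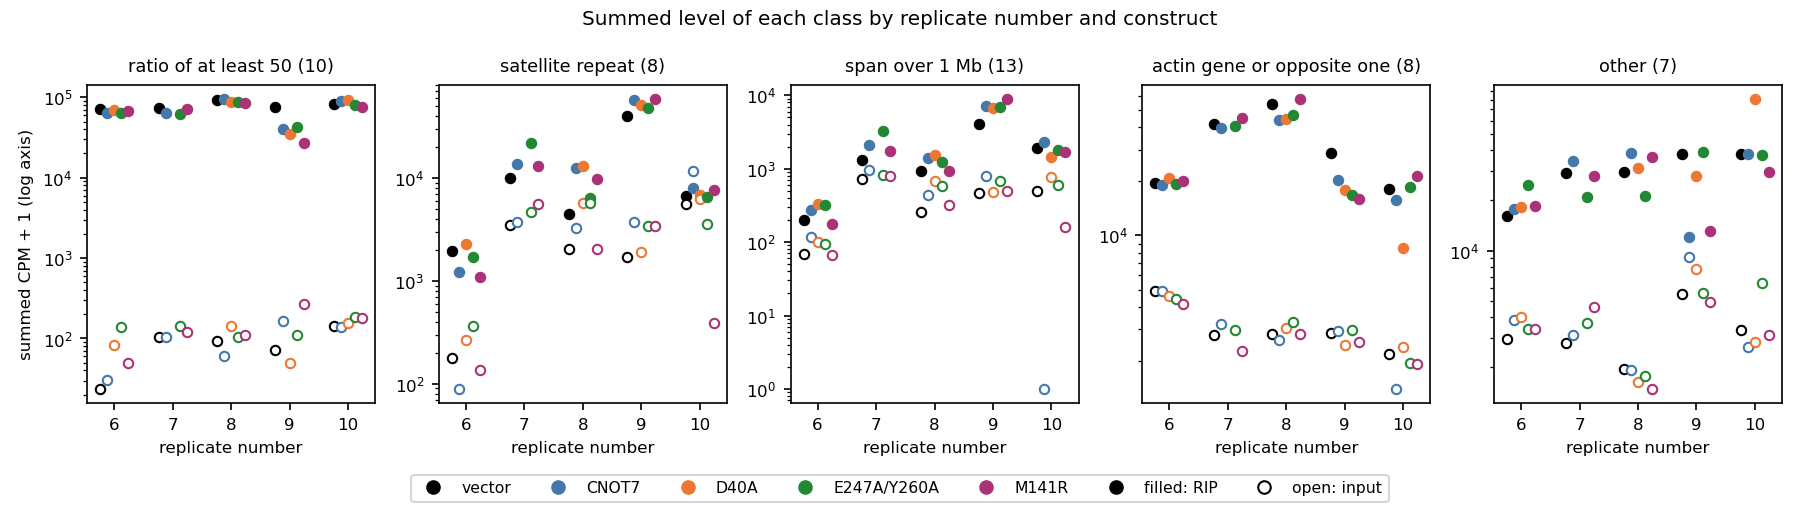
Summed CPM + 1 of each class (log axis, 1 panel per class) by replicate number, with constructs in colour, RIP libraries filled and inputs open. The satellite models and those over 1 Mb peak at replicate 9 in RIP (40342 to 58438 CPM for the satellites), while the high-ratio models dip there in the 4 FLAG-CNOT7 forms.

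The 13 models over 1 Mb included Cntn5, Csmd1, Lsamp, Cdh13, Tenm2, Asic2, Magi2, Lrp1b, Ctnna3, Nrxn3 and Fhit. Several are genes of neuronal adhesion and signalling, among them the contactin Cntn5, the neurexin Nrxn3, the teneurin Tenm2 and the acid-sensing channel subunit Asic2, and Fhit lies at a common fragile site. They made up 28.9% of the 45 annotated members, against 3.18% of the annotated models at the count minimum and 0.212% of all remaining annotated models. Of 56 models over 1 Mb, 38 (67.9%) had a ratio of at least 4, against 4.01% of the shorter models, and at the count minimum it was 13 of 24 (54.2%) against 32 of 730 (4.38%). The ratio chose the members, so these shares are a description, and they carry no test.

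Counts of these genes were small, between 256 and 463 over all 24 RIP libraries, and together they held 2.43% of the members' RIP counts. A large part came from D40A replicate 9, the RIP library with the most remaining counts. It gave 187 of the 463 counts of Cntn5 and 113 of the 256 counts of Fhit. The ratios of the 13 models ran from 4.22 (Tenm2) to 6.70 (Asic2), and 12 of the 13 were at 0 in at least 1 RIP library. The exception was Magi2, a scaffold protein of cell junctions, with RIP levels of 28.7, 84.4, 32.4, 343 and 28.9 CPM in vector replicates 6 to 10 and 42.4, 68.3, 83.0, 703 and 266 CPM with CNOT7. Asic2 stood at 0, 106, 32.4, 317 and 116 CPM in vector RIP and at 59.8, 427, 147, 486 and 235 CPM with E247A/Y260A. As with the satellites, replicate 9 was the highest in each of these groups.

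The summed level of the 13 was 177 to 331 CPM at replicate 6 and 4092 to 8916 CPM at replicate 9 in RIP, with 1309 to 3280 CPM at replicate 7, 922 to 1537 CPM at replicate 8 and 1466 to 2331 CPM at replicate 10. Input sums were 66.4 to 118 CPM at replicate 6 and 0 to 945 CPM at the other numbers. The ratio within a lysate exceeded 1 in all 24 and was at least 4 in 7.

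The actin class, 3 genes of the actin cytoskeleton and 5 models opposite such genes, held 18.2% of the members' RIP counts, with ratios from 6.50 (Capn12) to 12.1 (Gm26788). Filamin A (Flna), the heavy chain of non-muscle myosin (Myh9) and alpha spectrin (Sptan1) crosslink or move actin filaments, with ratios of 8.62, 10.4 and 8.66. These 3 genes had 1130 RIP counts, 3.75% of the class, and the 5 models opposite such genes had 29026. Gm26788 and A930005N03Rik overlap Dst, Gm17058 and Gm17057 overlap Lima1, an actin-binding protein, and the protease gene Capn12 overlaps Actn4, an actin crosslinker. Gm17058 and Gm17057 have no exon in common with Lima1, and Gm17058 also lies across another gene on the opposite strand.

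The rows of the genes on the other strand were low. Dst was counted 7 times over all inputs and 6 times over all RIP libraries, against 6333 and 15834 times for Gm26788 and 884 and 1956 times for A930005N03Rik. Lima1 was counted 64 and 49 times, against 5104 and 7643 for Gm17058 and 946 and 1347 for Gm17057. Actn4 was counted 66 and 195 times (ratio 10.7, under the count minimum), against 1630 and 2246 for Capn12. In each case the model crossing the gene held far more counts than the gene, with exons in common for Dst and Actn4 and none for Lima1. mRNAs that are abundant in most cells were also low in the table, with 298 input and 93 RIP counts for Actb and 85 and 23 for Gapdh. The library kit kept strand, and which strand was counted is not given in the sources used here, so the counts of these models and of the genes they cross cannot be assigned to one strand with certainty. The same limit holds for every other model named here, so a count need not be the mRNA level of the named gene.

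Opposite exons were not a general property of the members. An exon on the other strand was shared by 17 of the 45 annotated members (37.8%), by 80.8% of the annotated models at the count minimum and by 27.0% of all remaining ones. By name these included Spata5, opposite Nudt6 (51 input and 6 RIP counts, ratio 0.162). Nudt6 thus had a ratio under 1, unlike the member that crosses it.

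Gm26788 stood at 12108, 19844, 27461, 14521 and 7636 CPM in vector RIP replicates 6 to 10, at 11341, 20434, 21833, 10457 and 6193 CPM with CNOT7 and at 12800, 27470, 31031, 8903 and 8614 CPM with M141R. Its inputs ran from 460 to 2417 CPM, under every RIP library. Gm17058 stood at 4333, 13025, 14395, 7129 and 5438 CPM in vector RIP and at 4087, 11859, 4248 and 3770 CPM in D40A replicates 6, 8, 9 and 10. In these groups the highest values came from replicates 7 and 8, where the satellites had theirs at replicate 9. For the whole class the RIP sum was 39638 to 45111 CPM at replicate 7 and 43666 to 57411 CPM at replicate 8, against 19121 to 20843 CPM at replicate 6, 15981 to 28673 CPM at replicate 9 and 8535 to 21426 CPM at replicate 10.

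The remaining 7 members held 19.4% of the members' RIP counts, with ratios from 5.26 to 14.8. Mphosph8, a chromatin reader of the HUSH silencing complex, had the highest ratio of them and ranged from 608 to 2906 CPM in RIP and from 40.0 to 182 CPM in input. Spata5 encodes an ATPase of the AAA family. Its D40A RIP levels at replicates 6, 8, 9 and 10 were 939, 3688, 7316 and 26914 CPM. In vector RIP replicates 6 to 10 they were 832, 2196, 2691, 8185 and 8620 CPM. The highest of these values came from D40A replicate 10, the RIP library with the fewest remaining counts.

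Cmss1 lies across Filip1l, 1 of the 13 models set aside, on the opposite strand and with no exon in common. Its RIP level was 10903, 17965, 15659, 8079 and 12351 CPM in vector replicates 6 to 10 and 10642, 19705, 11013, 4739 and 13185 CPM with CNOT7, and its inputs had a median of 2198 CPM and were at 0 in CNOT7 replicate 10. Gm23935 was the other member found on such a model, Zc3h7a. Some of the 13 were not in the annotation and could not be checked. Filip1l was counted 7641384 times and Zc3h7a 2437501 times in RIP, against 11719 times for Cmss1 and 735 times for Gm23935. Of the rest, Camk1d, a calcium-dependent kinase, ranged from 316 to 2932 CPM in RIP, Il31ra, a cytokine receptor subunit, from 36.8 to 1571 CPM, and ENSMUSG00000089855 from 402 to 5341 CPM.

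**Figure D3:**
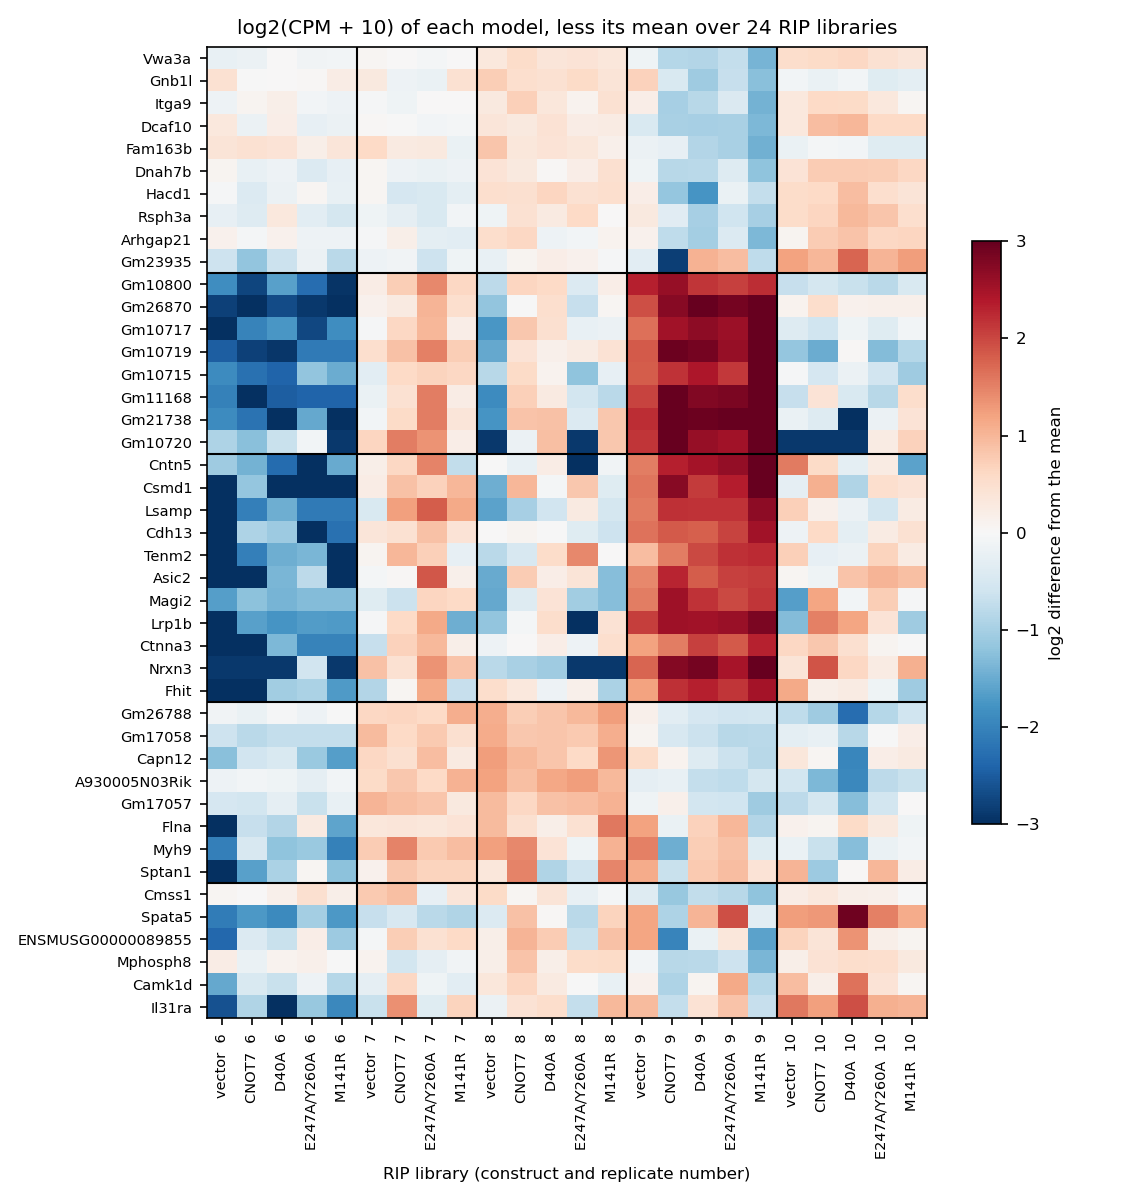
RIP level of 43 of the 46 models (rows, ordered by class) in 24 RIP libraries (columns, ordered by replicate number and then construct), as log2(CPM + 10) less the model's mean over the 24 libraries. Columns group by replicate number: satellites and models over 1 Mb are low at 6 and high at 9, and models opposite actin genes are high at 7 and 8.

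Members of the lists drawn up around CNOT7, which were filled by symbol, were absent. Of 18 models for CCR4-NOT subunits and partners, 161 polymerase III and small noncoding RNA models, 49 histone models, 11 small nucleolar RNA host genes and 24 mitochondrial models among the remaining 26770, none was a member and none had a ratio of at least 4, which 4.14% of the 26770 models had. Gm23935, annotated as a microRNA, is not in the list of small noncoding RNAs because its symbol names no such family. No ribosomal RNA model remained. Median ratios were 0.788 for CCR4-NOT and partners and 0.903 for mitochondrial models. Counts set a limit here. The count minimum was reached by 2.84% of the 26770 models, and by 0 of the 18 CCR4-NOT, 2 of the 161 polymerase III and small noncoding RNA, 0 of the 49 histone, 1 of the 11 small nucleolar RNA host gene and 9 of the 24 mitochondrial models, so few of these could have been members whatever their ratio.

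The comparisons between constructs addressed whether a FLAG-CNOT7 form recovered more of a model than the vector did. The rule used no difference between constructs, but it pooled their RIP libraries, 19 from the forms and 5 from vector cells. A model that was high in the forms could therefore pass with a lower vector level. All 5 members with a ratio under 4 in the vector libraries spanned over 1 Mb, among them Tenm2 (2.51), Magi2 (2.91) and Lrp1b (3.78). No satellite model and no model over 1 Mb met the rule without the libraries numbered 9, where the vector had the lowest sum of both classes. Differences from vector in these 2 classes are thus partly set by the choice of members, and their values, counts and calls are given as descriptions. The quasi-likelihood test of edgeR was fitted to the 24 RIP libraries over 1320 models, the 46 included, with Benjamini-Hochberg adjustment over all 1320 and a threshold of 0.05. No member was called with CNOT7, D40A, E247A/Y260A or M141R against vector, or with a mutant against CNOT7, and neither was any of the 1320 models (0.0% in each of the 8 comparisons, the mean of the 4 forms against vector included). The smallest adjusted p of a member was 0.996. DESeq2 called 0 members as well.

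At an unadjusted p under 0.05 the edgeR test without a replicate block passed 0.606% of the 1320 models in CNOT7 against vector, 1.67% in D40A, 1.06% in E247A/Y260A and 0.985% in M141R, with 0 members in each. Against CNOT7 it passed 0.833% in D40A, 0.303% in E247A/Y260A and 0.682% in M141R, again with 0 members. In the mean of the 4 forms against vector it passed 1.14%, among them 1 member. That member was Gnb1l, with a log2 fold change of -0.41 (SE 0.19, unadjusted p = 0.0437, adjusted p = 0.9996 in edgeR). Its log2 fold change was -0.44 with CNOT7, -0.43 with D40A, -0.42 with E247A/Y260A and -0.35 with M141R, and none of these passed without a replicate block.

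The differences from vector leaned one way in some classes without passing the test. All 8 satellite models and all 13 models over 1 Mb had a log2 fold change above 0 in each form. The satellite median was 0.88 with CNOT7, 1.34 with D40A, 1.18 with E247A/Y260A and 1.83 with M141R, and that of the models over 1 Mb was 0.65, 1.05, 1.06 and 1.18. The 4 comparisons share the vector libraries, and the choice of members favours this direction in both classes. Over all 46 members the medians were 0.09, 0.60, 0.42 and 0.22, beside 0.00, 0.04, 0.02 and 0.02 over the 1320 models. The actin class had medians of -0.17, -0.30, -0.01 and -0.04, and the high-ratio models -0.03, 0.06, -0.01 and -0.14.

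By smallest unadjusted p, the members highest against vector were Magi2 with CNOT7 (log2 fold change 1.16, SE 1.14), Gm23935 with D40A (0.92, SE 0.65), Asic2 with E247A/Y260A (1.47, SE 1.12) and Gm10719 with M141R (2.08, SE 1.37). Magi2 met the ratio with CNOT7 (6.28) and not in vector cells, so its place here follows in part from the rule. The lowest were Gnb1l in the first 3 and Fam163b with M141R (-0.43, SE 0.21, unadjusted p = 0.0555, adjusted p = 0.9995 in edgeR).

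**Figure D4:**
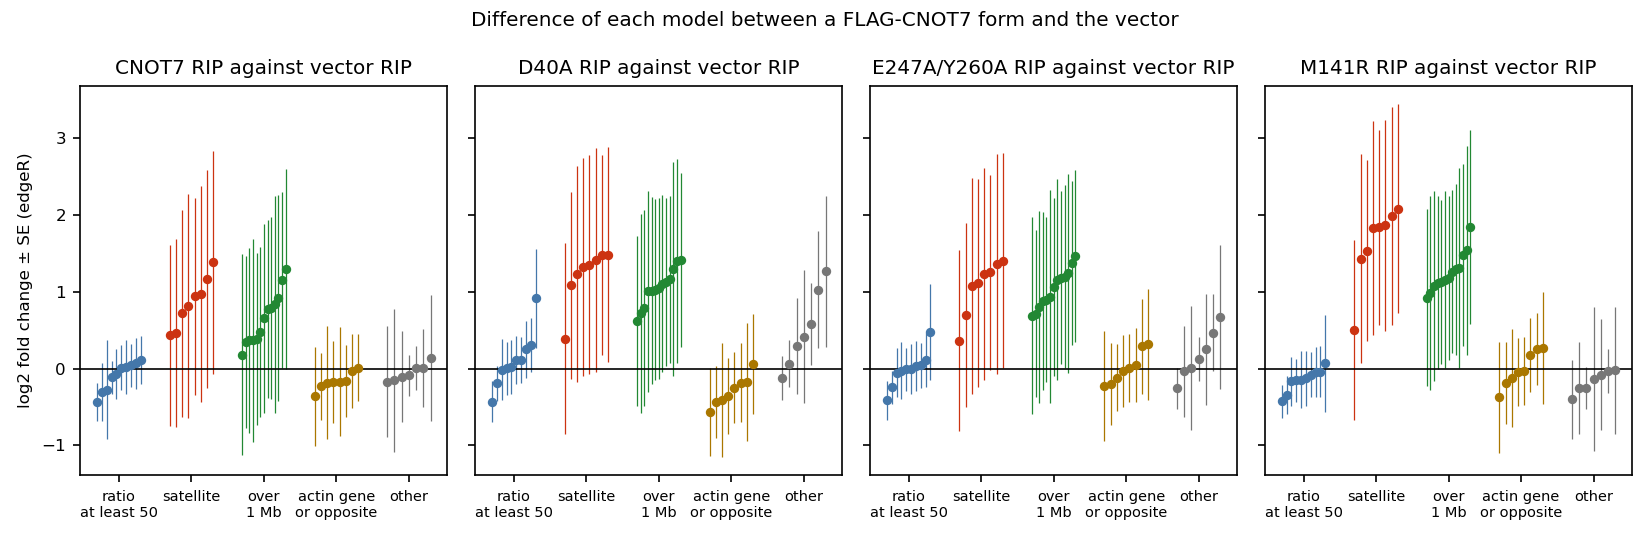
Log2 fold change of each member in RIP between a FLAG-CNOT7 form and the vector, with bars of 1 SE from edgeR, grouped and coloured by class. The satellite models and those over 1 Mb lie above 0 in all 4 panels with wide bars (satellite medians 0.88, 1.34, 1.18 and 1.83), and no member passed the test without a replicate block.

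Libraries with the same number deviated together in the mean of the 4 forms against vector, and with the number as a block 3 members were called higher: Gm10719 (log2 fold change 1.21, adjusted p = 0.0161), Gm10717 (1.20, adjusted p = 0.0161) and Gm11168 (1.33, adjusted p = 0.0181). All 3 are satellite models on chromosome 9, in the class that met the rule through the libraries numbered 9, so the calls carry the limit given above and support no difference between constructs. They were 3 of 4 models called higher in all (0.303% of 1320). With the same block, CNOT7 against vector called 0.0% of models, D40A 0.0758%, and E247A/Y260A 0.0%, with 0 members, and the mutants against CNOT7 0.0% each. In M141R against vector the block called 8 models higher (0.606%), of which 6 were members, namely Csmd1 and the satellite models Gm21738, Gm10719, Gm10717, Gm10715 and Gm11168. There the deviations of same-numbered libraries correlated at 0.267 to 0.778 at 4 of the 5 numbers and at 0.0552 at replicate 7, so pairing did not hold at every number. All 6 belong to the classes that met the rule through replicate 9, where M141R had the highest sum and the vector the lowest, and the same limit holds for them.

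With the block, more models passed an unadjusted p under 0.05 in edgeR than without it. In CNOT7 against vector it was 9 of the 46 members beside 5.38% of the 1320 models, in D40A 13 beside 11.1%, in E247A/Y260A 13 beside 10.8%, in M141R 19 beside 12.5%, and in the mean of the 4 forms 17 beside 12.3%. Of these 17, 16 were higher in the forms, 7 of them satellite models and 9 models over 1 Mb, so nothing is read from the excess over the share of all models. The member that was lower was Gnb1l, with a blocked log2 fold change of -0.43 (unadjusted p = 0.00106, adjusted p = 0.0951 in edgeR). By form, the blocked unadjusted p of Gnb1l was 0.00546 with CNOT7, 0.0110 with D40A, 0.00834 with E247A/Y260A and 0.0282 with M141R, and the adjusted p was 0.578, 0.315, 0.235 and 0.313 in edgeR. Against CNOT7 the block passed 2 members in D40A (4.7% of models), 2 in E247A/Y260A (3.48%) and 5 in M141R (4.7%).

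Gm10719 shows what lies under the blocked call. Its RIP level was 28.7, 296, 64.8, 766 and 86.8 CPM in vector replicates 6 to 10, 21.2, 387, 277, 1651 and 66.6 CPM with CNOT7, and 39.9, 607, 244, 1302 and 78.2 CPM with E247A/Y260A. With M141R it was 39.3, 348, 281, 2640 and 109 CPM, and in D40A replicates 6, 8, 9 and 10 it was 18.4, 231, 1559 and 209 CPM. The vector library was the lowest at replicates 7, 8 and 9 and not at 6 or 10. Taken over all numbers, the groups overlapped.

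When construct and replicate number stood in an additive fit, the construct term was called for 1 member, Gm10719 (F = 7.95, adjusted p = 0.0327 in edgeR), a satellite model with the limit above, of 2 models in all (0.152%), and 8.79% of models passed an unadjusted p under 0.05. This call was lost without a filter on low counts, under DESeq2, and in 11 of the 24 fits that left out 1 RIP library. The replicate number term was called for 45 of the 46 members, all but ENSMUSG00000089855 (adjusted p = 0.0782 in edgeR), beside 78.8% of the 1320 models and 80.4% at an unadjusted p under 0.05. Variation with the number was therefore common in the table. The members with the largest F were Gm26870 (154), Gm10719 (143), Gm10717 (132), Gm11168 (121) and Gm21738 (107), all satellite models. The rule kept no satellite model and no model over 1 Mb without the libraries numbered 9, so for these members the term is drawn from the values that chose them and is given as a description. The labels call the numbered libraries biological replicates and do not say what a number marks.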

How the data were processed

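RNA of 4T1 cells was sequenced from 24 anti-FLAG precipitates and 24 inputs. The counts, whole numbers for each gene model, were deposited by the authors in a single table and are not normalised. The submitters' processing notes name BWA, HTSeq and mm9, without versions, and the strand of counting is not given in the sources used here. Groups came from the sample labels, and every sample column of the table was used.

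Members followed the rule given above. The members, classes and lists were chosen with earlier results of these data known. RIP against input was not tested. RIP libraries were compared between constructs with edgeR 4.0.16 in R 4.3.3 (filterByExpr, TMM, quasi-likelihood test, two-sided, Benjamini-Hochberg over 1320 models), and the step was tested on simulated data. DESeq2 1.42.0, other filters and scalings, the replicate number as a block, other sets of libraries and each library left out were the alternatives. Python 3.11.15 with pandas 2.3.3, numpy 2.4.6 and matplotlib 3.10.9 did the rest. Symbols and sequences came from GENCODE M21 on GRCm38, which held 45 of the 46 members.

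The text names the 10 members with the highest mean RIP CPM, members called between constructs, the member with the smallest p per comparison with vector and direction, 5 members with the largest F for the replicate number, 3 models on each side of both limits, members of the gene lists, and members on the 13 models set aside. Other members are named to fill their classes, after their values were seen. Some models that the rule names are not reported here, nor drawn where the plots name models.

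Same-numbered libraries were checked for pairing by the correlation of their deviations from group means. It exceeded 0.1 at every number in CNOT7 (0.282 to 0.745), D40A and E247A/Y260A against vector, in D40A and M141R against CNOT7, and in the mean of the 4 forms against vector (0.249 to 0.808). It fell to 0.0552 in M141R against vector and 0.0314 in E247A/Y260A against CNOT7. Replicates of a group differed beyond sampling noise, with 4.98 as the smallest chi-square divided by its degrees of freedom. The p-values measure the spread between libraries.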

Additional observations from a re-analysis of the deposited data

Results flagged for a closer look

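Single libraries lay far from the rest of their group in 14 of the 100 groups of 4 or 5 libraries examined, by Dixon's limit at 95%, which chance exceeds in about 1 group in 20. Replicate 9 gave 12 of the 14, and the groups share libraries, since the classes contain the models examined singly. Satellite models and models over 1 Mb met the rule through the libraries numbered 9. Their values at replicate 9 are therefore given as descriptions, and the rate of chance does not apply to them.

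The summed level of the 8 satellite models in RIP was 56870.3 CPM in CNOT7 replicate 9, next to 13691.1 CPM in the nearest library, 58437.6 CPM in M141R replicate 9, next to 13063.0 CPM, and 40342.2 CPM in vector replicate 9, next to 9943.2 CPM. Gm10800 alone was 31645.6 CPM in CNOT7 replicate 9 and 26296.3 CPM in vector replicate 9. Gm26870 stood apart at replicate 9 in all 5 constructs, with 16266.1 CPM in CNOT7, 19652.9 CPM in D40A, 17951.9 CPM in E247A/Y260A, 21066.5 CPM in M141R and 9346.3 CPM in vector RIP. The summed level of the 13 models over 1 Mb was 8915.7 CPM in M141R RIP replicate 9.

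Among inputs, the actin class summed to 4873.2 CPM in vector replicate 6, next to 2859.0 CPM, and the remaining 7 members summed to 9148.6 CPM in CNOT7 replicate 9, next to 3828.7 CPM. Gm17058, opposite Lima1, was 11859.0 CPM in D40A RIP replicate 8, next to 4248.3 CPM.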

How the results depend on the processing

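No member tested was called in any of the 8 comparisons between constructs under DESeq2, library size alone, the most abundant models left out before scaling, either other filter (18 of 46 members tested with at least 10 counts in every library), only the libraries compared (7 comparisons, 27 to 29 members tested), all 48 libraries, a log2 fold change of at least 1, or any library left out (0 to 0 members). The replicate block called 6 members in M141R against vector (Csmd1, Gm21738, Gm10719, Gm10717, Gm10715 and Gm11168) and 3 in the mean of the 4 forms against vector, and changed no other call. In M141R against vector and E247A/Y260A against CNOT7 pairing held at 4 of 5 numbers.

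The construct term, 1 member, became 5 with library size alone, 2 with the most abundant models left out, 0 without a filter, 0 with at least 10 counts in every library (18 members tested), 0 under DESeq2, and 0 to 5 with a library left out. The call was lost without vector replicate 6, 7, 8 or 9, CNOT7 replicate 6, 7, 9 or 10, or E247A/Y260A replicate 6, 7 or 10, and the count reached 5 without M141R replicate 7. The replicate number term, 45 members, became 17 of 18 tested with at least 10 counts in every library, and 45 to 46 with a library left out.

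The number of members, 46, became 81 at a ratio of 2, 18 at a ratio of 8, 29 at 480 RIP counts, 139 at 120 counts, and 31 by vector, 32 by CNOT7, 152 by D40A, 44 by E247A/Y260A and 54 by M141R libraries alone, and ran from 25 to 63 with a replicate number left out, 25 without number 9. All 8 satellite models were lost at a ratio of 8 and with medians in place of means, and all 13 models over 1 Mb were lost at a ratio of 8 and at 480 counts and fell to 5 with medians. Leaving out CNOT7 input replicate 10 (47) or D40A RIP replicate 10 (48) was chosen after the data had been seen. Depth limits the 13 models over 1 Mb and Sptan1, Flna and Myh9, which had 242 to 463 counts over the 24 RIP libraries.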

Other observations

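The share of the remaining counts taken by each class was also compared by construct, without a test. High-ratio models, those with a ratio of at least 50, summed to 79413 ± 8777 CPM (SD, n = 5) in vector RIP, 70735 ± 21884 CPM (n = 5) with CNOT7, 71374 ± 26076 CPM (n = 4) with D40A, 67315 ± 17368 CPM (n = 5) with E247A/Y260A and 65357 ± 22484 CPM (n = 5) with M141R. At replicate 9 their vector sum was 75562 CPM, while the 4 FLAG-CNOT7 forms lay between 26864 and 42641 CPM, and at replicates 6, 7, 8 and 10 all constructs lay between 62768 and 95274 CPM. This difference at 1 number was not tested.

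The 56 models over 1 Mb had a median ratio of 4.72, and 24 of them reached the count minimum, so the others could not be members whatever their ratio.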
